A study of Mus musculus with 24 samples.

Results

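The 38 genes described here encode working parts of the lysosome and 3 of its transcriptional regulators. They were taken by symbol from what their proteins do, with no threshold on a measured value, but with earlier results of these data known. The set holds 16 soluble hydrolases or partners of such enzymes, 8 membrane proteins, 11 subunits of the lysosomal proton pump and the transcription factors Tfeb, Tfe3 and Mitf. Each symbol matched 1 identifier among the 55421 genes of the count table, and all 38 were among the 16593 genes that passed the filter on low counts. RNA was sequenced from macrophages grown out of bone marrow (BMDMs) of wildtype (WT) C57/B6/J and of AhR-deficient (AhR-KO) mice, unstimulated or stimulated with LPS, with 6 libraries in each of 4 groups. The AhR-KO strain (B6.129-Ahr tm1Bra/J) lacks the aryl hydrocarbon receptor (AhR), a ligand-activated transcription factor, in every cell of the body, and so also in the marrow cells that the cultures were started from. Marrow of young adult mice of both sexes was grown with GM-CSF at 10 ng/ml and TGF-β1 at 2 ng/ml, which drives an alveolar-like macrophage type, and LPS was given on day 6 at 97 EU/ml for 24 h. A final step of 10 min with 5 µM of the Ca2+ ionophore A23187 is listed in the protocol for every library, and the labels do not say whether unstimulated cultures also went through it. Each group stands for 6 animals from 1 experiment by the study's own description, but no label ties a library to an animal, so that p-values measure the spread between these libraries.

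The lysosome is the acidic compartment in which macrophages break down what they engulf. Its hydrolases (cathepsins for proteins, glycosidases for sugars, lipases for lipids) need the low pH that the vacuolar ATPase maintains, a rotary pump whose cytosolic V1 sector splits ATP and whose membrane V0 sector carries the protons. Many genes for these proteins hold an E-box in the promoter, the CLEAR element, which is bound by TFEB, TFE3 and MITF.

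Sequencing depth was between 45106052 and 76992663 counts per library, so that counting error was small beside the biological coefficient of variation of 49.1%. Values per library are given as CPM, counts scaled to a common library size with edgeR's TMM factors, and levels are compared between genes only as TPM, which also takes gene length into account. Libraries differed in how their counts depended on gene length (slopes of -0.296 to 0.312), and the libraries with the lowest slopes, number 33 in unstimulated WT and number 19 in unstimulated AhR-KO BMDMs, were also those whose members most often lay apart from their group. Without both, a choice made after seeing the data, every member called in a genotype or LPS comparison remained called, Mitf was called in addition between genotypes after LPS, and Gusb lost its interaction. Ahr itself was lower in unstimulated AhR-KO BMDMs (log2 fold change -1.93, adjusted p = 0.000971) but higher after LPS (1.36, adjusted p = 0.011), and these counts cover the whole gene and not only what the allele lacks. Ahrr, the AhR repressor and a known AhR target, had fewer counts in every AhR-KO library than in any WT library, in both states. Macrophage markers were abundant throughout, with a summed level of 11876 to 33262 CPM over 7 genes, and each was detected in every group. Single ones differed: between genotypes edgeR called 0 of the 7 without stimulation (-1.25 to 0.57) and 1 after LPS, which was higher (1.24). LPS raised 2 and lowered 1 in WT and raised 3 and lowered 1 in AhR-KO BMDMs. These are 42.9% and 57.1% of the list, beside 24.9% and 30.8% of all genes. The genotypes also differed in markers of other cells. Summed neutrophil markers (7 genes) ranged from 1500 to 11956 CPM in unstimulated WT and from 225 to 745 CPM in unstimulated AhR-KO BMDMs, and from 654 to 8045 against 130 to 973 CPM after LPS. Dendritic and Langerhans cell markers (7 genes) summed to 74.5 to 211 CPM in unstimulated WT and 10.1 to 19.1 CPM in unstimulated AhR-KO BMDMs, and to 580 to 2453 against 100 to 894 CPM after LPS. Without stimulation edgeR called 5 of the 7 lower and 1 higher (values from -9.67 to 1.34), beside 3.57% and 0.916% of all genes. After LPS it called 5 lower (6.19% of all genes were), and 1 marker was above 0, at 2.54. Markers of alveolar macrophages (7 genes) summed to 1435 to 1904 CPM in unstimulated WT and 2378 to 3402 CPM in unstimulated AhR-KO BMDMs, and to 2085 to 3625 against 4316 to 6586 CPM after LPS, while single markers differed. LPS lowered 4 of the 7 and raised 1 by the call in each genotype (medians -1.53 and -2.21). Of all genes 11.8% were called lower with LPS in WT and 15.7% in AhR-KO BMDMs. Between genotypes after LPS 3 of 7 were below 0. Summed markers of mast cells and basophils (5 genes) were at 4.77 to 17.9 CPM in WT and 1.95 to 3.91 CPM in AhR-KO BMDMs without stimulation, and at 14.6 to 40.1 against 3.88 to 11.3 CPM after LPS. Fibroblast markers (3 genes) reached 5.39 CPM without stimulation, and after LPS they were at 0.792 to 8.41 CPM in WT and 9.81 to 26.9 CPM in AhR-KO BMDMs. Of these 3 genes 1 was called higher there, at 3.84 on the log2 scale (2.17% of all genes were called higher). Markers of erythroid cells stayed at or below 0.567 and those of T and B cells at or below 0.232 CPM in sum. The part of these other cells in the results below was not tested, and in bulk RNA fewer cells of a type and less RNA per cell cannot be told apart.

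Per unit of gene length, proteases dominated the set. In unstimulated WT BMDMs, Ctss (cathepsin S, a cysteine protease that trims the invariant chain of MHC class II) made up 31.6% of the summed TPM of the 38 genes, with 5896 ± 1599 TPM (mean ± SD, n = 6). Ctsd (cathepsin D, the main aspartic protease) followed with 15.0% and 2790 ± 1086 TPM, and next came Lamp1, a glycoprotein of the lysosomal membrane, with 5.23% and 974 ± 212 TPM. At the other end lay the 3 transcription factors and Mcoln1, a lysosomal Ca2+ channel. Tfe3 had 4.6 ± 2.92 TPM, Tfeb 7.07 ± 2.94, Mcoln1 9.55 ± 1.02 and Mitf 10.8 ± 6.25 TPM, and the spread of Tfe3, Tfeb and Mitf overlapped, so that their order cannot be read from these libraries. Ctss, Ctsd, Ctsl, Glb1, Atp6v0a1 and Atp6v1e1 each overlap another annotated gene on the same strand, and reads from the shared stretch may have been left out or split by the counting.

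Without stimulation, the proteases Ctsk and Lgmn were higher in AhR-KO BMDMs and the membrane glycoprotein Gpnmb was lower. A gene was called when its change was at least 2-fold and its adjusted p not above 0.05 (edgeR's quasi-likelihood test, Benjamini-Hochberg adjustment over all genes tested). In this comparison 2 of 38 members were called higher and 1 lower, where 0.916% of all genes tested were called higher and 3.57% lower. By the adjusted p alone 6 members were higher (Ctsk, Lgmn, Ctsb, Ctsh, Lipa and Lamp1) and 1 lower, against 1.83% and 4.29% of all genes. The median log2 fold change was 0.37 over the 38 members and -0.01 over all genes tested, and 36 of 38 members had a value above 0 (33 with scaling by total library size instead of TMM, and a median of 0.28). By role, the median was 0.53 for the 16 soluble hydrolases, 0.28 for the 8 membrane proteins, 0.58 for the 3 transcription factors, 0.15 for the 5 subunits of the membrane sector of the pump and 0.22 for the 6 of its cytosolic sector.

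**Figure D1:**
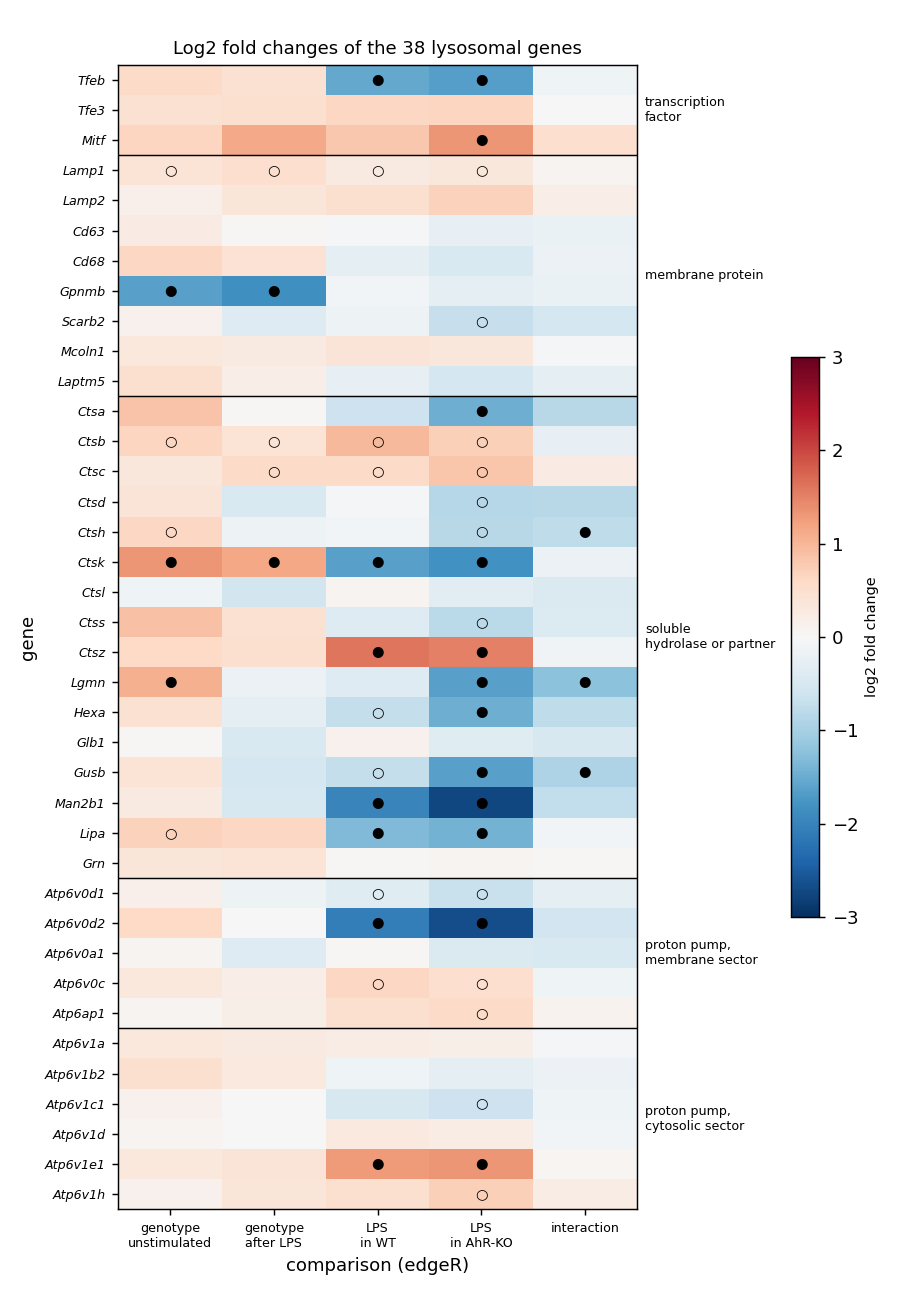
Log2 fold changes of the 38 genes (rows, grouped by role) in the 5 comparisons (columns), coloured from blue (lower) to red (higher); the genotype columns give AhR-KO against WT, the LPS columns LPS against unstimulated. Filled circles mark called genes and open circles those that pass the adjusted p but change less than 2-fold; Ctsk and Gpnmb are filled in both genotype columns, and the LPS columns hold 7 filled circles for WT and 12 for AhR-KO.

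Ctsk (mm10, chr3:95499256-95509362) encodes cathepsin K, a collagen-degrading cysteine protease best known from osteoclasts. It ranged from 110 over a median of 127 to 207 CPM in the unstimulated WT libraries and from 288 over 318 to 605 CPM in the AhR-KO libraries. No AhR-KO library was as low as any WT library, and 1 AhR-KO library, at 605 CPM, lay far above the other 5, which reached at most 355 CPM. The difference was 2.52-fold (log2 fold change 1.34 ± 0.20 SE, adjusted p = 8.79e-05). Library numbers fall into 3 consecutive runs with 2 libraries per group each, which may or may not be batches, and within them the difference was 1.92, 1.43 and 0.61 on the log2 scale. Without libraries 19 (the one at 605 CPM) and 33 it was 1.26.

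Lgmn (chr12:102394084-102439813) encodes legumain, the asparaginyl endopeptidase that also processes other cathepsins. It ranged from 116 over 161 to 181 CPM in WT and from 289 over 314 to 383 CPM in AhR-KO BMDMs, again without overlap. This was a 2.11-fold difference (log2 fold change 1.08 ± 0.16 SE, adjusted p = 6.86e-05), with 0.98, 1.19 and 1.09 within the runs. Scaling by total library size instead of TMM gave 0.99, which is just under the 2-fold threshold.

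Gpnmb (chr6:49036546-49070929), a transmembrane glycoprotein of lysosomes and melanosomes that MITF is known to induce, went the other way. Its level was 211 over 423 to 539 CPM in WT and 76.6 over 135 to 156 CPM in AhR-KO BMDMs. Every AhR-KO library was below every WT library, with a 3.11-fold difference (log2 fold change -1.64 ± 0.30 SE, adjusted p = 8.74e-04). The runs gave -2.06, -1.73 and -1.0.

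Members with smaller changes included Ctsb, cathepsin B, a cysteine protease with both endo- and exopeptidase activity. It had 2185 to 2485 CPM (median 2400) in WT and 3359 to 4068 CPM (median 3790) in AhR-KO BMDMs, which did not overlap and differed by 0.66 ± 0.11 on the log2 scale (adjusted p = 2.7e-04). Ctsh, the aminopeptidase cathepsin H, had 510 to 784 CPM (median 701) in WT and 850 to 1285 CPM (median 975) in AhR-KO BMDMs, a log2 fold change of 0.61 ± 0.14 (adjusted p = 0.00621). Lamp1 was at 1005 to 1237 CPM in WT and at 1413 to 1597 CPM in AhR-KO BMDMs, a log2 fold change of 0.41 ± 0.09 (adjusted p = 0.00651), and here too every AhR-KO library was above every WT library. Lipa, the acid lipase that releases cholesterol from its esters, passed narrowly (0.70 ± 0.21, adjusted p = 0.0467), and its libraries overlapped. Just past the threshold lay Ctss (0.87 ± 0.27, adjusted p = 0.0565), whose AhR-KO libraries were all above the WT libraries, and Atp6v0d2 (0.59 ± 0.19, adjusted p = 0.075), whose libraries overlapped.

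**Figure D2:**
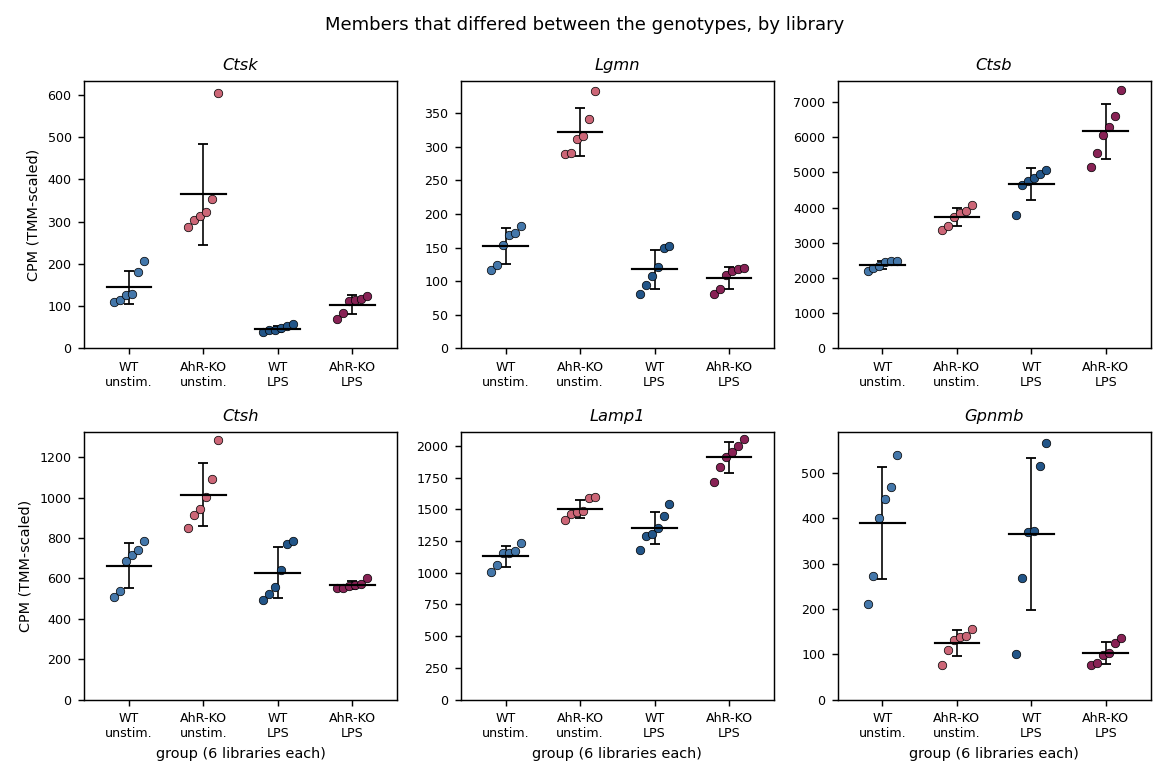
CPM of 6 members in each library (points), with the mean (line) and SD (bars) of the 6 libraries of a group, on axes that start at 0. Unstimulated AhR-KO libraries lie above all unstimulated WT libraries for Ctsk, Lgmn, Ctsb, Ctsh and Lamp1 and below them for Gpnmb, and after LPS the groups overlap for Lgmn, Ctsh and Gpnmb.

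Promoter sequences were read for these members to show which hold the E-box core that TFEB, TFE3 and MITF bind. RefSeq windows (GRCm38.p6, 250 bases before to 50 after an annotated start) were at hand for 32 of the 38 members, and for Atp6v0d2, Atp6v1b2, Atp6v1c1, Atp6v1h, Ctsb and Ctsh none was. The E-box core CACGTG, which reads the same on both strands, was present in a window of 9 of 32 members (28.1%) and of 8.09% of all genes with a window. The longer CLEAR core TCACGTGA, which contains the E-box core, occurred in 5 of 32 members (15.6%), namely Ctsa, Ctsd, Mcoln1, Atp6v1a and Atp6v0d1, and in 1.13% of all genes. The core of the AhR binding site, GCGTG on either strand, occurred in 14 of 32 members (43.8%) and in 35.2% of all genes. The members with the smallest genotype p among those with an E-box are printed, on the strand of the gene, with CACGTG and GCGTG (or CACGC, the same core on the other strand) in capitals. Lgmn (chr12:102439043-102439342, minus strand) has 1 E-box at position -49 from the start, Lamp1 (chr8:13158911-13159210, plus strand) has 4 at -61, -45, -28 and -15, and Ctsl (chr13:64370471-64370770, minus strand), which encodes the cysteine protease cathepsin L, has 1 at -236 and 2 AhR cores at 12 and 19.
Lgmn: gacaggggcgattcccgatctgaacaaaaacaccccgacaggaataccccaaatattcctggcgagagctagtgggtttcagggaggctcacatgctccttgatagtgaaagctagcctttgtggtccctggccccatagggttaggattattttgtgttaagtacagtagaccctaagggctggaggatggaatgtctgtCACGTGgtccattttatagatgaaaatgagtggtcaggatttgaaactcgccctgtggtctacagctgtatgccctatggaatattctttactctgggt
Lamp1: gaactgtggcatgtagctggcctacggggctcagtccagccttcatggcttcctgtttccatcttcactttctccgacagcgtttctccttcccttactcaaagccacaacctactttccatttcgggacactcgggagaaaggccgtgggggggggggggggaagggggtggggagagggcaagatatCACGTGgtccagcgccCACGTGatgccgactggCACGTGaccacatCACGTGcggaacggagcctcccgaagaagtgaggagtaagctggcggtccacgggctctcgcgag
Ctsl: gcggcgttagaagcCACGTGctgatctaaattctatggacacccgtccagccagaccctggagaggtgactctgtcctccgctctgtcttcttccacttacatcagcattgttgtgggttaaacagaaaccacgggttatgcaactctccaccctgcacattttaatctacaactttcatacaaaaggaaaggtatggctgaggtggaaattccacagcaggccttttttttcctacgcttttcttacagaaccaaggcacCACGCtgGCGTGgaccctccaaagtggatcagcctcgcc

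Of these, Lgmn and Lamp1 were higher in unstimulated AhR-KO BMDMs by the adjusted p, whereas Ctsl had a log2 fold change of -0.14 ± 0.19 without stimulation and -0.56 ± 0.19 after LPS (adjusted p = 0.0526), neither of which was called. The printed members were picked by their genotype p, so a genotype difference among them follows from that choice. The other members with an E-box were Ctsa, Ctsd, Glb1, Mcoln1, Atp6v1a and Atp6v0d1. None of them passed the adjusted p between genotypes in either state. The windows of Ctsk and Gpnmb held neither core, and those of Tfeb and Mitf (3 each) held no E-box. A second Lgmn window (chr12:102439679-102439978), which holds the 5' end of the annotated gene, had no E-box and 1 AhR core at position -143. The printed Lgmn window belongs to another annotated start and lies inside the gene. A match shows only that these letters are in the window.

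After LPS, Ctsk remained higher and Gpnmb lower in AhR-KO BMDMs, and Lgmn no longer differed between the genotypes by the test. In this comparison 1 member was called higher and 1 lower (2.17% and 6.19% of all genes), and by the adjusted p alone 4 were higher and 1 lower (4.33% and 8.3% of all genes). The median over the members was 0.20, against -0.05 over all genes tested, and 25 of 38 members were above 0. Both figures depend on the scaling: TMM factors ran from 0.704 to 1.3, and total library size moved the median of all genes by -0.22 here, which left a median of -0.01 over the members and 18 of 38 above 0.

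Ctsk had 37.8 over 45.1 to 56.8 CPM in LPS-stimulated WT and 69.7 over 113 to 124 CPM in LPS-stimulated AhR-KO BMDMs, without overlap. The difference was 2.22-fold (log2 fold change 1.15 ± 0.20 SE, adjusted p = 2.65e-04), and with total library size it was 0.95 on the log2 scale, under the 2-fold threshold. Gpnmb had 102 over 372 to 566 CPM in WT and 76.5 over 100 to 135 CPM in AhR-KO BMDMs, where some AhR-KO libraries were above the lowest WT library. Its difference was 3.55-fold (log2 fold change -1.83 ± 0.31 SE, adjusted p = 1.7e-04). Lamp1 had 1182 to 1540 CPM in WT and 1713 to 2055 CPM in AhR-KO BMDMs (0.50 ± 0.09, adjusted p = 6.66e-04). Ctsb was at 3799 to 5079 CPM in WT and 5162 to 7340 CPM in AhR-KO BMDMs (0.40 ± 0.11, adjusted p = 0.0147), and Ctsc, the dipeptidyl peptidase cathepsin C that activates granule proteases, had a log2 fold change of 0.58 ± 0.18 (adjusted p = 0.0333).

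The effect of LPS itself differed between the genotypes for 3 members, all soluble hydrolases and all with a more negative LPS effect in AhR-KO BMDMs. The interaction term passed the adjusted p for Lgmn, Ctsh and Gusb, while 1.95% of all genes passed it with a positive and 2.34% with a negative interaction. Of 38 members 29 had an interaction below 0, with a median of -0.18 against -0.05 over all genes, and 14 of the 16 soluble hydrolases were below 0 (median -0.46). With the slope of counts on gene length as a covariate 9 members passed, 1 higher and 8 lower, but so did 2730 of 16593 genes (16.5%).

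Lgmn showed the clearest interaction. After LPS it had 81.4 over 114 to 152 CPM in WT and 80.2 over 112 to 119 CPM in AhR-KO BMDMs, and these ranges covered each other, unlike those without stimulation. LPS lowered it 3.07-fold in AhR-KO BMDMs (log2 fold change -1.62 ± 0.16, adjusted p = 1.45e-08), where no LPS library reached an unstimulated one, and the value in WT was -0.38 ± 0.16 (adjusted p = 0.0623). The interaction was -1.24 ± 0.22 (adjusted p = 0.00155), with -1.35, -1.01 and -1.33 in the 3 runs.

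Ctsh followed the same course on a smaller scale. It had 494 over 599 to 785 CPM in LPS-stimulated WT and 551 over 566 to 604 CPM in LPS-stimulated AhR-KO BMDMs. The LPS effect was -0.08 ± 0.14 in WT and -0.84 ± 0.14 in AhR-KO BMDMs, and the interaction was -0.76 ± 0.20 (adjusted p = 0.0272). It was lost without the filter on low counts, which raised the number of genes tested, and without 1 WT library (number 26), where the adjusted p was 0.0513. Gusb, the β-glucuronidase, had 265 over 321 to 352 CPM in unstimulated WT and 375 over 426 to 455 CPM in unstimulated AhR-KO BMDMs. After LPS it had 106 over 174 to 323 CPM in WT and 104 over 129 to 167 CPM in AhR-KO BMDMs. Its interaction of -0.93 ± 0.27 (adjusted p = 0.0482) lay at the threshold and was lost in 18 of 24 fits that left out 1 library, with adjusted p up to 0.0936.

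With LPS, Atp6v0d2, Ctsk, Tfeb, Lipa and Man2b1 fell and Ctsz and Atp6v1e1 rose in both genotypes. In WT BMDMs 2 members were called higher (Ctsz and Atp6v1e1) and 5 lower (Atp6v0d2, Man2b1, Ctsk, Tfeb and Lipa), where 13.2% of all genes were called higher and 11.8% lower. In AhR-KO BMDMs 3 were higher (Ctsz, Atp6v1e1 and Mitf) and 9 lower (Man2b1, Atp6v0d2, Ctsk, Tfeb, Gusb, Lgmn, Hexa, Ctsa and Lipa), against 15.1% and 15.7% of all genes. Together these were 18.4% of the members beside 24.9% of all genes in WT, and 31.6% beside 30.8% in AhR-KO BMDMs, so that the number of called members was not above that of genes at large in WT and close to it in AhR-KO BMDMs. By the adjusted p alone 6 were higher and 8 lower in WT (19.7% and 18.3% of all genes), and 9 were higher and 15 lower in AhR-KO BMDMs (22.1% and 22.6%). The median over the members was -0.04 in WT and -0.36 in AhR-KO BMDMs, and over all genes tested it was 0.03 and -0.03. Total library size moved the median of all genes by -0.35 in WT and -0.48 in AhR-KO BMDMs and changed the split of calls to 1 higher and 7 lower in WT and 1 higher and 15 lower in AhR-KO BMDMs. Under this scaling 28.8% of all genes were called in WT and 36.9% in AhR-KO BMDMs. The tests of both LPS effects and of both genotype effects share libraries, so their values stand side by side and are not independent of each other.

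Among the transcription factors, Tfeb, which drives lysosome formation when nutrients are scarce, fell with LPS. It had 10.3 over 16.5 to 22.1 CPM in unstimulated WT and 3.36 over 6.25 to 7.76 CPM in LPS-stimulated WT BMDMs. In AhR-KO BMDMs it went from 20.6 over 25.9 to 29.1 CPM to 5.42 over 8.16 to 10.8 CPM. Neither genotype had an LPS library at the level of an unstimulated one. The fall was 2.88-fold in WT (-1.53 ± 0.23, adjusted p = 9.67e-06) and 3.15-fold in AhR-KO BMDMs (-1.66 ± 0.23, adjusted p = 2.26e-06).

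Mitf, a relative of Tfeb known from melanocytes, mast cells and osteoclasts, moved the other way. It had 7.40 over 25.4 to 43.5 CPM in unstimulated WT and 19.2 over 51.8 to 72.1 CPM in LPS-stimulated WT BMDMs (0.81 ± 0.43, adjusted p = 0.147). In AhR-KO BMDMs it had 9.83 over 48.1 to 64.5 CPM without and 52.8 over 112 to 142 CPM with LPS, where the groups overlapped, and a 2.49-fold rise (1.32 ± 0.43, adjusted p = 0.0154). With total library size this rise was 0.81 on the log2 scale and no longer called. The genotype difference after LPS was 1.15 ± 0.43 and was not called (adjusted p = 0.0887), although DESeq2 and 3 other settings did call it.

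Tfe3 gave wide ranges in every group, from 5.36 over 15.9 to 27.9 CPM in unstimulated WT to 12.6 over 32.2 to 69.9 CPM in LPS-stimulated AhR-KO BMDMs. The groups between had 5.78 over 25.8 to 40.1 CPM (unstimulated AhR-KO) and 10.5 over 22.4 to 48.5 CPM (LPS-stimulated WT). None of its comparisons was called, with standard errors of 0.49 on all 4 genotype and LPS effects. Per length, Mitf had 1.5 times the level of Tfeb in the median unstimulated WT library and 1.72 times in the median unstimulated AhR-KO library. Both ranges, 0.66 to 1.8 in WT and 0.436 to 2.10 in AhR-KO BMDMs, lay on both sides of 1. After LPS the median ratio was 7.59 in WT and 12 in AhR-KO BMDMs, and its lowest value with LPS, 4.85, was above its highest without, 2.10.

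Of the cathepsins, Ctsk and Ctsz responded to LPS in opposite directions. Ctsk fell 3.11-fold in WT (-1.64 ± 0.20, adjusted p = 6.68e-07) and 3.53-fold in AhR-KO BMDMs (-1.82 ± 0.20, adjusted p = 9.43e-08), with no overlap in either. Ctsz, the carboxypeptidase cathepsin Z, rose from 251 over 451 to 606 CPM to 695 over 1443 to 2253 CPM in WT, a 3.06-fold change (1.61 ± 0.32, adjusted p = 2.95e-04). In AhR-KO BMDMs it rose from 375 over 748 to 937 CPM to 984 over 1878 to 2913 CPM (2.84-fold, 1.51 ± 0.32, adjusted p = 4.61e-04). Ctsb also rose with LPS, 1.97-fold in WT (0.98 ± 0.11, adjusted p = 1.37e-07) and 1.65-fold in AhR-KO BMDMs (0.72 ± 0.11, adjusted p = 6.77e-06), which is below 2-fold in both. Ctsd had 1952 over 2560 to 3668 CPM without and 1184 over 2099 to 5334 CPM with LPS in WT (-0.03 ± 0.33), and 2601 over 3591 to 4285 CPM without and 1016 over 1505 to 3432 CPM with LPS in AhR-KO BMDMs, where the libraries overlapped. Its fall in AhR-KO BMDMs passed the adjusted p but not the 2-fold limit (-0.86 ± 0.33, adjusted p = 0.0378), which it did pass with a factor for the 3 runs (-1.06, adjusted p = 2.2e-04), with limma-voom (-1.03) and with total library size (-1.35).

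Of the glycosidases, Man2b1, Hexa and Gusb were lower after LPS in both genotypes by the adjusted p, and so was the acid lipase Lipa. Man2b1, a lysosomal α-mannosidase, had 13.8 over 39.3 to 186 CPM in LPS-stimulated WT against 76.0 over 305 to 434 CPM without LPS, and 15.2 over 27.9 to 117 CPM against 99.2 over 423 to 485 CPM in AhR-KO BMDMs. Its log2 fold changes of -1.99 ± 0.65 in WT (adjusted p = 0.0177) and -2.74 ± 0.67 in AhR-KO BMDMs (adjusted p = 0.00167) had the largest standard errors among the called members, and the groups overlapped in both genotypes. Lipa fell 2.51-fold in WT (-1.32 ± 0.21, adjusted p = 2.21e-05), from 694 to 1080 CPM to 287 to 445 CPM, and 2.66-fold in AhR-KO BMDMs (-1.41 ± 0.21, adjusted p = 7.15e-06), from 983 to 1845 CPM to 281 to 683 CPM, without overlap in either.

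Hexa, the α subunit of β-hexosaminidase, had 584 over 706 to 849 CPM without and 323 over 399 to 581 CPM with LPS in WT, a log2 fold change of -0.72 ± 0.16 (adjusted p = 0.00113). In AhR-KO BMDMs it went from 739 over 943 to 1301 CPM to 282 over 341 to 415 CPM, a 2.78-fold fall (-1.47 ± 0.17, adjusted p = 1.11e-07). Gusb fell 3.12-fold in AhR-KO BMDMs (-1.64 ± 0.19, adjusted p = 2.07e-07) and had -0.71 ± 0.19 in WT (adjusted p = 0.00432). Ctsa, the protective protein that stabilises β-galactosidase and neuraminidase, fell 2.75-fold in AhR-KO BMDMs (-1.46 ± 0.34, adjusted p = 0.00111), and its value in WT was -0.63 ± 0.34 (adjusted p = 0.149). The difference between the genotypes in the LPS effect did not pass the test for Hexa (interaction adjusted p = 0.0706) or Ctsa (interaction adjusted p = 0.521). Glb1, the β-galactosidase itself, and Grn, the lysosomal growth factor precursor progranulin, were not called in any comparison.

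Of the 8 membrane proteins, edgeR with TMM and DESeq2 called 0 with LPS in either genotype, beside 24.9% and 30.8% of all genes. An unadjusted p under 0.05 was found for 2 of them in WT and 3 in AhR-KO BMDMs, and for 7509 and 8399 of all 16593 genes. The adjusted p alone was passed by Lamp1 in both genotypes (0.26 ± 0.09 and 0.35 ± 0.09), whose direction turned with total library size (-0.089 and -0.14), and by Scarb2, the receptor that carries β-glucocerebrosidase to lysosomes, in AhR-KO BMDMs (-0.68 ± 0.14, adjusted p = 2.19e-04), which total library size called (-1.16). Gpnmb did not move with LPS beyond its error in WT (-0.09 ± 0.30) or AhR-KO BMDMs (-0.28 ± 0.30). Lamp2, Cd63, the macrophage glycoprotein Cd68, the Ca2+ channel Mcoln1 and Laptm5 were not called in any comparison, with log2 fold changes between -0.54 (Laptm5, LPS in AhR-KO) and 0.69 (Lamp2, LPS in AhR-KO).

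**Figure D3:**
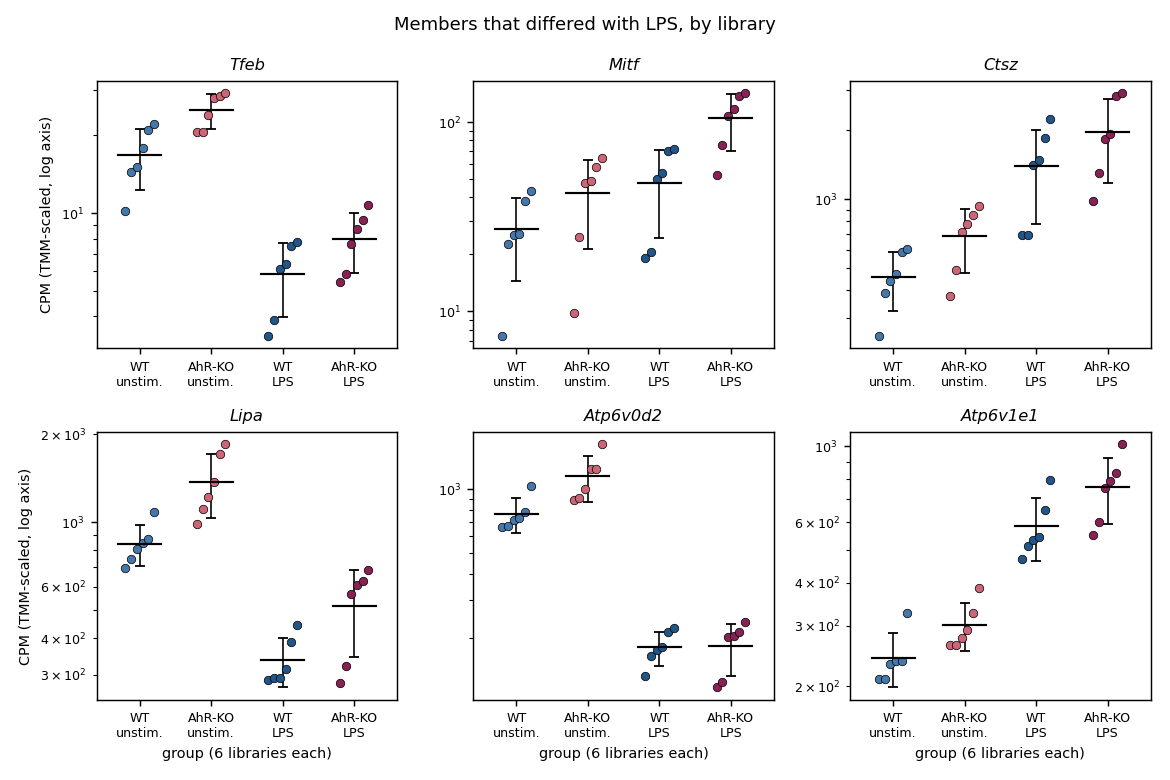
CPM of 6 members in each library (points, log axis), with the mean (line) and SD (bars) of the 6 libraries of a group. Tfeb, Lipa and Atp6v0d2 lie lower in all LPS libraries than in the unstimulated libraries of the same genotype and Ctsz and Atp6v1e1 higher, while Mitf overlaps between states.

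Within the proton pump, 2 of 11 subunits were called with LPS in each genotype (beside 24.9% of all genes in WT and 30.8% in AhR-KO BMDMs), and they moved apart. Atp6v0d2 (chr4:19876841-19922605), the d2 subunit of the membrane sector, which is typical of osteoclasts and macrophages, had 663 over 721 to 1039 CPM in unstimulated WT and 888 over 1118 to 1623 CPM in unstimulated AhR-KO BMDMs. After LPS it had 132 over 178 to 222 CPM in WT and 117 over 203 to 238 CPM in AhR-KO BMDMs, far from the unstimulated libraries. The fall was 4.23-fold in WT (-2.08 ± 0.20, adjusted p = 1.2e-08) and 6.29-fold in AhR-KO BMDMs (-2.65 ± 0.20, adjusted p = 1.69e-10), and the interaction of -0.57 ± 0.27 was not called (adjusted p = 0.348).

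Its counterpart Atp6v0d1, the d1 subunit found in most tissues, changed less, by -0.36 ± 0.10 in WT (adjusted p = 0.00655) and -0.66 ± 0.10 in AhR-KO BMDMs (adjusted p = 1.03e-05). Per length, Atp6v0d2 was therefore more abundant than Atp6v0d1 without LPS and less abundant with LPS. The ratio of their TPM was 1.65 over 1.83 to 2.11 in unstimulated WT and 1.96 over 2.51 to 3.16 in unstimulated AhR-KO BMDMs, and it was 0.359 over 0.603 to 0.691 and 0.382 over 0.715 to 0.885 after LPS. All 12 LPS libraries were below 1 and all 12 others above it.

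In the cytosolic sector, Atp6v1e1, the E1 subunit of the peripheral stalk, rose with LPS. It had 210 over 234 to 328 CPM in unstimulated and 468 over 538 to 796 CPM in LPS-stimulated WT BMDMs, and 264 over 285 to 385 CPM and 553 over 774 to 1011 CPM in AhR-KO BMDMs. Neither genotype showed overlap, and the rise was 2.41-fold in WT (1.27 ± 0.16, adjusted p = 1.17e-06) and 2.51-fold in AhR-KO BMDMs (1.33 ± 0.16, adjusted p = 4.06e-07). With total library size the log2 fold changes were 0.92 and 0.85 and not called. The other subunits stayed below 2-fold with TMM, while total library size put Atp6v0d1 (-1.14) and Atp6v1c1 (-1.08) past it with LPS in AhR-KO BMDMs. Atp6v0c, the proton-carrying ring subunit, changed by 0.62 ± 0.16 in WT and 0.51 ± 0.16 in AhR-KO BMDMs (adjusted p = 0.00366 and 0.0136). Atp6ap1, Atp6v1c1 and Atp6v1h passed the adjusted p in AhR-KO BMDMs, with 0.57, -0.62 and 0.72. Atp6v0a1, Atp6v1a, Atp6v1b2 and Atp6v1d passed in no comparison. Between genotypes edgeR and DESeq2 called 0 of the 11 subunits, and an unadjusted p under 0.05 was found for Atp6v0d2 and Atp6v1b2 without stimulation and for Atp6v1e1 after LPS.

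**Figure D4:**
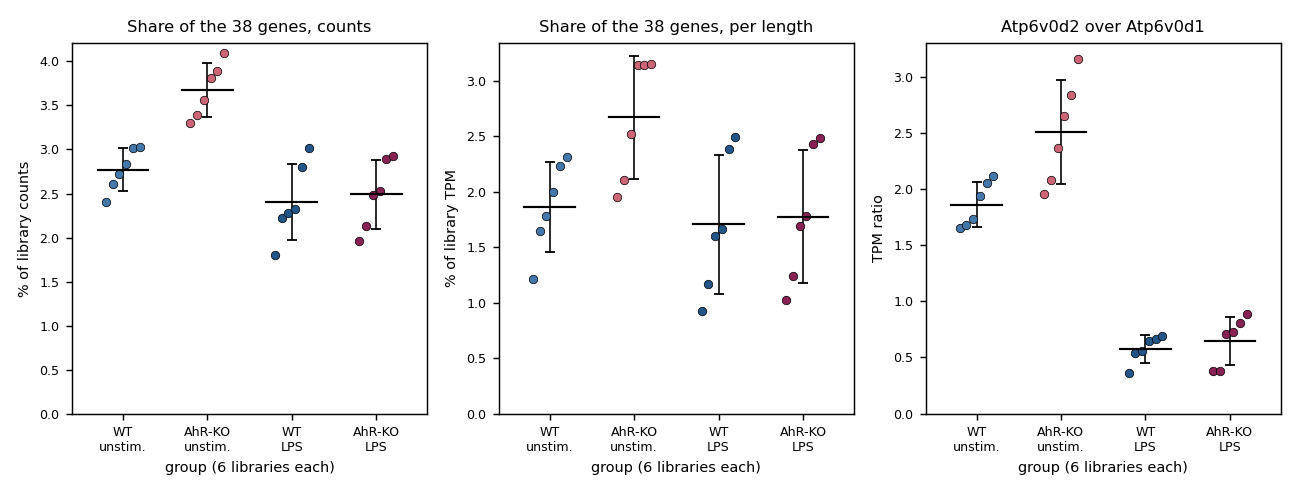
Share of the 38 genes in the counts (left) and in the summed TPM (middle) of each library, in percent, and the TPM ratio of Atp6v0d2 to Atp6v0d1 (right); points are libraries, lines means and bars SD of 6 libraries. In counts, the unstimulated AhR-KO libraries (3.30% to 4.09%) lie above all other libraries, in TPM they overlap with them, and the ratio is above 1 only without LPS.

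As a whole, the 38 genes took 2.41% to 3.03% of the counts in unstimulated WT libraries and 3.30% to 4.09% in unstimulated AhR-KO libraries, which did not overlap. After LPS the share was 1.80% to 3.01% in WT and 1.96% to 2.93% in AhR-KO BMDMs. In TPM the unstimulated groups did overlap, with 1.21% to 2.31% in WT and 1.96% to 3.15% in AhR-KO BMDMs.

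Lysosomal genes outside the set were counted in 7 further lists. Of 46 other soluble enzymes and activators tested, edgeR called 0 between genotypes without stimulation and DESeq2 and limma-voom 1 each, while 7 were higher by the adjusted p alone (1.83% of all genes were) and 14 had an unadjusted p under 0.05 (median 0.32). After LPS 1 was called lower and 1 higher, 4.35% of the list beside 8.36% of all genes. The higher one was Pld4, a 5' exonuclease of endolysosomes (1.92 ± 0.22, adjusted p = 1.5e-06). LPS raised 5 and lowered 6 of them in WT (median -0.10) and raised 7 and lowered 10 in AhR-KO BMDMs (median -0.42), which were 23.9% and 37% of the list beside 24.9% and 30.8% of all genes. The rises were led by the RNases Rnaset2b (2.71 and 3.27) and Rnaset2a (2.53 and 3.18), which are near-identical copies and may share reads. The falls were led by Pld4 (-2.02), Gm2a (-1.51) and Galc (-1.46) in WT and by Ctse (-2.75), Galc (-2.73) and Dpp7 (-2.06) in AhR-KO BMDMs. Acp5, the tartrate-resistant acid phosphatase, rose by 2.10 in WT and 1.07 in AhR-KO BMDMs and had an interaction of -1.03 (adjusted p = 0.00479).

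Of 35 other membrane proteins and transporters tested, 1 was higher without stimulation, Slc11a1, the metal transporter NRAMP1 (1.04 ± 0.20, adjusted p = 0.00143), and limma-voom called 0 there. After LPS 1 was lower, Laptm4b (-1.39 ± 0.22, adjusted p = 1.05e-04). These are 2.86% of the list each, beside 4.48% and 8.36% of all genes. LPS raised 5 and lowered 3 in WT and raised 5 and lowered 6 in AhR-KO BMDMs, 22.9% and 31.4% of the list beside 24.9% and 30.8% of all genes. Slc11a1 rose most in both, from 13.3 to 20.6 CPM to 289 to 460 CPM in WT (4.40 ± 0.23) and from 19.2 to 49.3 CPM to 411 to 639 CPM in AhR-KO BMDMs (3.91 ± 0.22). The channel Mcoln3 fell most, by 3.30 and 4.60 on the log2 scale, in contrast to the member Mcoln1 (0.39 and 0.35, not called). Clcn7, the chloride-proton exchanger of lysosomes, rose by 2.15 in WT and 1.66 in AhR-KO BMDMs.

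Of 16 other pump subunits and assembly factors tested, 1 was called between genotypes without stimulation and 2 after LPS. These are 6.25% and 12.5% of the list, beside 4.48% and 8.36% of all genes. The assembly factor Rogdi was the one called in both comparisons. It had 16 over 28.6 to 33.1 CPM in unstimulated WT and 6.73 over 10.5 to 11.6 CPM in unstimulated AhR-KO BMDMs (-1.40 ± 0.35, adjusted p = 0.0142). After LPS it had 16.6 over 62.2 to 74.0 CPM in WT and 0.955 over 2.41 to 6.02 CPM in AhR-KO BMDMs (-4.21 ± 0.40, adjusted p = 1.12e-07), with no overlap in either state and an interaction of -2.80 (adjusted p = 0.00148). Dmxl2, which acts with Rogdi in assembling the pump, was lower after LPS (-1.52 ± 0.48, adjusted p = 0.0385), with overlapping libraries, and limma-voom called only 1 gene of this list lower there. Atp6v1e2, an E subunit typical of testis, was called higher with LPS in both genotypes, but it had 0 counts in all unstimulated WT libraries, 1 count over the unstimulated AhR-KO libraries and at most 0.577 CPM in any library, so no fold is given.

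Of 31 genes of sorting and biogenesis, 1 was called between genotypes after LPS, which is 3.23% of the list beside 8.36% of all genes. This was Gga2, an adaptor that carries hydrolases from the Golgi (-1.57 ± 0.14, adjusted p = 4.25e-08). It rose with LPS in WT, from 69.3 to 80.3 CPM to 151 to 255 CPM, and had 83.6 to 104 CPM without and 42.4 to 77.6 CPM with LPS in AhR-KO BMDMs, an interaction of -1.89 (adjusted p = 3.09e-06). With LPS 9.68% of this list was called in WT and 6.45% in AhR-KO BMDMs, beside 24.9% and 30.8% of all genes. The sorting receptor Sort1 fell with LPS by 2.00 and 3.71 on the log2 scale, and Cln6 by 1.90 and 1.81. Of 23 genes of nutrient sensing, 4.35% were called between genotypes after LPS, beside 8.36% of all genes. With LPS 13% were called in each genotype, beside 24.9% of all genes in WT and 30.8% in AhR-KO BMDMs. Rragd, a GTPase of the complex that recruits mTORC1 and a known TFEB target, was lower in AhR-KO BMDMs after LPS (-1.84 ± 0.29, adjusted p = 9.35e-05). Hif1a rose with LPS in both genotypes (1.02 and 1.76, interaction 0.74, adjusted p = 0.00827). Of 30 autophagy genes edgeR, DESeq2 and limma-voom called 0 between genotypes in either state, where 3 and 4 had an unadjusted p under 0.05. With LPS 3 were called higher and 1 lower in each genotype, which is 13.3% of the list beside 24.9% of all genes in WT and 30.8% in AhR-KO BMDMs. In AhR-KO BMDMs limma-voom called 2 higher and 2 lower. Sqstm1, the cargo receptor p62, rose by 1.86 and 2.21 on the log2 scale.

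Inhibitors of cathepsins and other proteases were mostly lower in AhR-KO BMDMs. Of 15 tested, 9 were called lower without stimulation (median -1.80) and 10 after LPS (median -2.06), beside 3.57% and 6.19% of all genes, and none was called higher by edgeR, DESeq2 or limma-voom. Cst3, cystatin C, the main secreted inhibitor of cysteine cathepsins and named here after its values were seen, had 902 over 1734 to 2129 CPM in unstimulated WT and 371 over 464 to 635 CPM in unstimulated AhR-KO BMDMs (-1.80 ± 0.31, adjusted p = 4.6e-04). The largest falls were in the stefin A genes Stfa2 (-3.98), Stfa3 (-3.86) and BC100530 (-3.85), which are close copies of each other and may share reads. Stefin A genes are known from neutrophils, and all 6 neutrophil markers tested were also lower without stimulation (median -3.38), and the part of neutrophils in this difference was not tested. Cst7, the inhibitor cystatin F, was lower without AhR in both states (-1.89 and -2.06) and rose with LPS in both genotypes (3.56 and 3.39).

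Ctsk and Atp6v0d2 are also known from osteoclasts, so osteoclast markers were read beside them. Their sum over 9 genes was 265 to 378 CPM in unstimulated WT and 498 to 772 CPM in unstimulated AhR-KO BMDMs, and 1285 to 1842 against 1952 to 3067 CPM after LPS. Ocstamp (2.13 and 2.59) and Dcstamp (1.22 and 1.37), genes of cell fusion, were the markers called by edgeR between genotypes, in both states, where 4.48% and 8.36% of all genes were called. Of the 8 markers tested 2 were below 0 without stimulation (median 0.27) and 5 after LPS (median -0.55), among them Mmp9 (-2.08 and -0.99) and Itgb3 (-0.91 and -1.34), and DESeq2 called 1 lower in each state. After LPS DESeq2 and limma-voom called 3 higher. Calcr, the calcitonin receptor, had 0 counts in all 12 unstimulated libraries. With LPS the sum rose while Ctsk and Atp6v0d2 fell. The part of such cells in the levels of Ctsk and Atp6v0d2 was not tested.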

How the data were processed

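Poly-A RNA of 24 BMDM libraries was sequenced with a stranded kit. Per the labels and methods, the authors converted base calls with bcl2fastq (2.20.0), aligned reads to mm10 with GSNAP and counted reads per gene of Ensembl release 98 with featureCounts (2.0.1). They deposited these as raw counts, 1 column per library. The authors' own comparisons had been made with DESeq2.

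Starting from the deposited counts, genes were filtered with edgeR's filterByExpr, which left 16593 of 55421. Spike-in rows (92, with 1 count in all) were left out. Library sizes were scaled by TMM, and 1 quasi-likelihood model over the 4 groups (edgeR 4.0.16, R 4.3.3) gave 5 contrasts: genotype in each state, LPS in each genotype, and their interaction. P-values were adjusted by Benjamini-Hochberg over all genes. A call needed an adjusted p not above 0.05 and a 2-fold change, or for the interaction the adjusted p alone. Members and gene lists were chosen with earlier results of these data known. Genes outside the set were named by size of change, at most 3 per list and direction among those called. All members were accounted for. Values by library were due for members called by genotype or interaction, for the 5 smallest p of each LPS effect and for the transcription factors; those given for Ctsz, Lipa, Man2b1, Ctsd, Lamp1 and Atp6v0d1 were chosen after their values were seen, and other members were named with fewer values or summarised. The fits were tested on simulated counts. Depth was 45106052 to 76992663 counts per library. TPM and promoter matches were computed with Python 3.11.15. Alternatives were DESeq2 (1.42.0), limma-voom (limma 3.58.1), other scalings and filters, a factor for 3 runs of library numbers, a length covariate, and leaving out each library. 1 gene of the wider lists is not reported here.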

Additional observations from a re-analysis of the deposited data

Results flagged for a closer look

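In each group of 6 libraries, the lowest and the highest library were compared with the others by the size of the gap between them. Of 152 such groups (38 genes in 4 groups) 12 had 1 library farther out than Dixon's critical value, which is 7.89%, and chance flags about 1 in 20. Library 33 (unstimulated WT) accounted for 8 of the 12 and library 19 (unstimulated AhR-KO) for 2.

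Library 33 had the lowest CPM of its group for Mitf (7.40, others 22.8 to 43.5) and Man2b1 (76.0, others 241 to 434). It had the highest for Atp6v0d1 (324, others 248 to 272), Atp6v0d2 (1039, others 663 to 778), Atp6ap1 (795, others 386 to 502), Atp6v1c1 (526, others 236 to 296), Atp6v1d (154, others 105 to 115) and Atp6v1e1 (328, others 210 to 236). So 6 of the 8 were subunits of the proton pump, all high. In library 19, Ctsk was highest (605 CPM, others 288 to 355) and Atp6v0c lowest (82.1, others 120 to 148). Both libraries had the most negative slopes of counts on gene length, -0.296 for library 19 and -0.280 for library 33, and the part of this in their levels was not tested. Without both libraries, a choice made after seeing the data, the number of called members was 3, 3, 7, 12 and 2 in the comparisons of genotype without and with LPS, LPS in WT and AhR-KO BMDMs, and the interaction, where 4.37%, 9.23%, 25.4%, 31.3% and 4.45% of all genes were called.

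After LPS, Ctsb was lowest in the WT library 38 (3799 CPM, others 4651 to 5079), and Atp6v1d highest in the AhR-KO library 39 (176 CPM, others 134 to 143).

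The LPS effect differed between the genotypes, by the interaction test of edgeR with Benjamini-Hochberg adjustment, for Lgmn (-1.24), Ctsh (-0.76) and Gusb (-0.93, on the log2 scale).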

How the results depend on the processing

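By the adjusted p alone, with no minimum fold change, 7, 5, 14 and 24 members passed in the comparisons of genotype without and with LPS and of LPS in WT and AhR-KO BMDMs. With total library size, 1 member (Gpnmb) was called between genotypes after LPS, and the LPS effect on Lamp1 turned to -0.089 in WT and -0.14 in AhR-KO BMDMs. For the interaction, 1 member (Lgmn) passed without the filter on low counts, where more genes were tested, and 9 (1 higher, 8 lower) with the length covariate, under which 16.5% of all genes passed; the cause was not tested. Leaving out 1 library at a time gave 3 called members throughout and 2 throughout for the genotype effects, 7 to 8 and 12 to 13 for the LPS effects, and 1 to 4 for the interaction, with 1 without WT library 26. The Gusb interaction was lost with total library size, limma-voom, no filter and without libraries 19 and 33, and Mitf was called between genotypes after LPS with DESeq2, the run factor, the length covariate and without those libraries. Over 62 members' fold changes, the 10 settings, the libraries left out in turn and dropping the 2-fold limit kept direction and side of the threshold in 1382 cases, lost the call in 29, gained it in 43 and turned 2, the Lamp1 values above. The 43 include every member that passed only the adjusted p, because dropping the 2-fold limit gains these by definition. No paired analysis was possible because every library has a number of its own and no label pairs libraries across groups. The factor for the 3 runs of numbers, which no label calls batches, gave 3, 3, 7, 13 and 4 called members (beside 5.62%, 10%, 27.2%, 33.4% and 7.24% of all genes), with Mitf (genotype after LPS, 1.23) and Ctsd (LPS in AhR-KO BMDMs, -1.06) gained. In the interaction it kept the 3 members of the main fit and gained a further one. DESeq2 also gave 4 members there, beside 6.78% of all genes. Depth was high for every member, so the spread between libraries, not counting, limits these comparisons.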
